A study of Mus musculus with 32 samples.

Results

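The genes described here lie on mouse chromosome 17 around Percc1, the gene deleted in percc1-/- mice. They were chosen as the genes with a single-symbol record that starts between positions 20000000 and 27000000 of mm9 and that averaged at least 1 FPKM (fragments per kilobase of transcript, scaled to the mapped fragments of the library) over all 32 libraries, with Hagh left out. The rule kept 133 genes of 22532 in the tables. The window held 200 genes at any level, of which 66 averaged under 1 FPKM. The level decided membership and is therefore given as a description. Snhg9 at 1.14 FPKM and Fbxl16 at 1.25 lay just inside the limit, and Cldn6 at 0.841 and Tpsab1 at 0.812 just outside it. The window itself was chosen with the knowledge that chromosome 17 held many genes that differed between the genotypes, so the number that differed is also a description.

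RNA came from regions of the gut dissected from percc1-/- (ko) and wild-type (wt) mice and was sequenced as total RNA, with 1 library of each genotype for every region and stage, which makes 16 pairs. The small intestine gave 7 pairs (upper part at P1, P5 and P15, lower part at P1, P5, P10 and P20). The stomach gave 5 (whole at P1 and P5, lower part at P10, P15 and P20), the large bowel 3 (at P5 the rectum and the colon separately, at P1 both together). A last pair came from entire guts at E14.5, where P is the postnatal and E the embryonic day. All animals had a mixed 129SvEv and C57BL/6 background. In W4/129S6 embryonic stem cells 1512 bases were replaced with a loxP site, and after Cre removal of the selection cassette the line was crossed to C57BL/6J and bred between siblings. The deletion is constitutive. Whether libraries of the same stage came from the same animals, and how many animals went into each, is not stated in the labels.

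Percc1 encodes a protein needed for the enteroendocrine cells, the hormone-secreting cells of the gut lining. A mutation made in 129-derived stem cells and then crossed to another strain stays linked to a stretch of 129-derived DNA on the same chromosome, and genes in that stretch can carry 129 alleles in the mutant and not in the control. In this design the deletion and the strain origin of the DNA beside it go together in every pair, so their effects on the genes below cannot be told apart. In bulk tissue, fewer cells of a type and less RNA per cell cannot be told apart either.

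The labels place the deletion at chr17:25175032-25176543. On mm9 these positions fall in Ift140 and touch 0 of its exons, whereas on GRCm38 they fall inside the RefSeq Percc1 gene (25171154 to 25180818). The RefSeq promoter of Percc1 matched mm9 at a single place, with the start site at 25317763 on the minus strand, and 118 of 125 promoters searched around it shared the offset of 136945 bases between the builds. Distances below are therefore counted from that start site to the nearer end of a gene's record. Its promoter is shown because it marks the targeted locus (RefSeq, GRCm38.p6; mm9 chr17:25317714-25318013, minus strand; capitals mark the last 50 bases, which begin at the start site).

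Percc1: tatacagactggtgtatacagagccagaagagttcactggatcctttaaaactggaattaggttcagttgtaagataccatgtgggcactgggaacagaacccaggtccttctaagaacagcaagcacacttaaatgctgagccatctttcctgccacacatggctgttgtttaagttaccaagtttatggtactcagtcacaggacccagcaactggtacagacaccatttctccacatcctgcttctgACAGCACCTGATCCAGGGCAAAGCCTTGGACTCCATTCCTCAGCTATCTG

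Transcription over the targeted gene checked the genotype labels of the stomach libraries. No record carries the name Percc1, so the unnamed records over the 9665 bases from its start site were summed. In the wild-type stomach such records were present in 5 of 5 libraries, at 5.16 to 13.9 FPKM. The ko stomach had none in any of 5 libraries, and none was listed in small intestine, large bowel or whole gut of either genotype. The genotype labels of those organs could not be checked in this way.

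The second promoter shown is that of Fahd1 and Hagh, because these neighbours start 188 bases apart on opposite strands (Fahd1 at 24987247, Hagh at 24987435) and both fell in ko. The sequence is on the Fahd1 strand (mm9 chr17:24987198-24987497, minus strand, from RefSeq GRCm38.p6), and capitals mark the 189 bases that span both start sites.

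Fahd1: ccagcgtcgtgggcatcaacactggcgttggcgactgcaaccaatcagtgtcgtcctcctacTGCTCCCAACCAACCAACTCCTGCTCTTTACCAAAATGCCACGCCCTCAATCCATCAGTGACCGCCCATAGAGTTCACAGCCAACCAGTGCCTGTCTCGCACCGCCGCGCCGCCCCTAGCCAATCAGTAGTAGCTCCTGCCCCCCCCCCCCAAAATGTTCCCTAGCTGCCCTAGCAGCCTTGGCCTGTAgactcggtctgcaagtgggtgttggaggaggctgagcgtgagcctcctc

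The Fahd1 sequence held 14 CG dinucleotides, and 36.3% of 32851 mouse promoters of this length hold at least as many. The Percc1 sequence held 0, and the share of promoters with none was not determined. Searched on both strands, CCAAT occurred 2 times in the Fahd1 sequence and 0 times in that of Percc1, and 37.4% of 32851 mouse promoters of this length hold it. GGGCGG also occurred 2 times and 0 times (35.7% of promoters), and TATAAA in neither (13.6%).

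The tables listed 55408 to 248150 records per library, the fewest in the ko lower stomach at P15, and the factors that put libraries on a common scale ran from 0.864 to 1.38. Named genes held 16.8 to 60.2% of the summed FPKM. By median, markers of the labelled organ were highest where the labels place them. Stomach markers summed to a median of 649.8 FPKM in stomach, 55.1 in small intestine and 4.62 in large bowel. Enterocyte markers summed to 515.5, 127.6 and 185.7 in small intestine, stomach and large bowel, and large bowel markers to 47.9, 3.25 and 85.3. Single libraries overlapped for stomach markers, with 130.6 FPKM in the lowest stomach library and up to 270.9 in small intestine. Large bowel markers overlapped too, from 56.9 FPKM in large bowel and up to 72.2 in small intestine. Enterocyte markers did not, with 346.7 FPKM in the lowest small intestine library and at most 249.7 elsewhere. In 10 of 16 pairs, however, the markers of some other organ differed between ko and wt by a median of over 1 on the log2 scale, and over all pairs 9 of 9 tested exocrine pancreas markers were lower in ko (median -0.49, none passing) and 8 of 8 enteric neuron markers higher (median 0.14, none passing). Their part in the results below was not tested beyond leaving those pairs out.

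Over the 16 pairs, 10 of the 116 window genes with a value in every library passed the test of ko against wt, which is 8.62%, where 0.887% of all 13084 tested genes passed (116 genes). The test was limma on log2(FPKM + 1) with the pair as block, at an adjusted p under 0.05, and every log2 change below is on that scale, which understates the change of low genes. Counts of pairs higher or lower in ko were taken after rescaling of the libraries. A pair's sign can therefore differ from that of its deposited FPKM. Of the 10, 8 fell in ko (0.497% of all tested genes fell) and 2 rose (0.39% rose). The 8 include Snhg9, which entered the set through its wt level, as described below. In order of position the 10 were Zfp943, Zfp40, Zfp213, Tnfrsf12a, Paqr4, Abca3, Snhg9, Fahd1, Igfals and Decr2. On chromosome 17 outside the set, 19 of 509 tested genes passed (3.73%), and on the other chromosomes 87 of 12459 (0.698%). Hagh, which lies in the window but was left out of the set, is counted among the 19.

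Among the 116 genes, 72 were lower and 44 higher in ko, with a median of -0.035 against -0.0009 over all genes tested, and a median size of change of 0.118 against 0.0703. At an unadjusted p under 0.05 stood 38 of them, 32.8% against 13.2% of all genes tested. A change of over 0.25 either way was found for 25 window genes, where 8.68% of all tested genes had such a change. The sign was the same in at least 14 of 16 pairs for 13 window genes, 11 of them lower, against 2.42% of all tested genes. For 10 of the 116 the deposited confidence bounds of ko and wt lay apart in the same direction in at least 8 pairs, 5 higher and 5 lower in ko, against 3.49% of all.

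**Figure D1:**
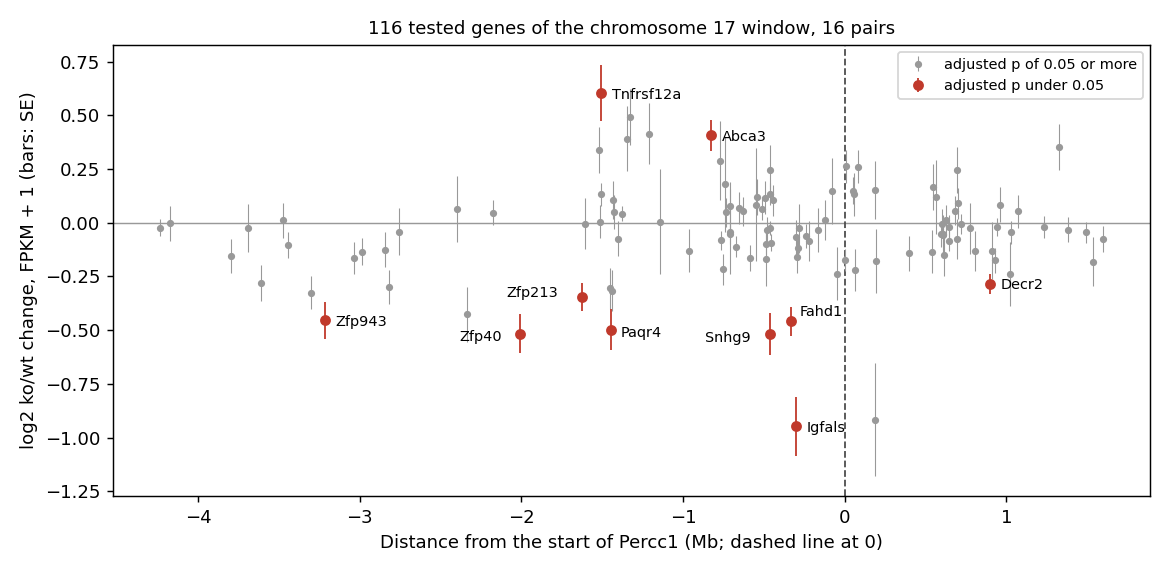
Log2 change of ko against wt over 16 pairs (y axis, log2 of FPKM + 1) for each of the 116 tested window genes, by distance of its first position from the Percc1 start site (x axis, Mb); bars are standard errors and red points passed at an adjusted p under 0.05. The 10 red points lie between -3.2 Mb and 0.9 Mb, 8 of them below 0, with Igfals the lowest at -0.95.

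Igfals encodes the acid-labile subunit, which holds insulin-like growth factors and their binding protein in a stable complex in the circulation. It starts at 25015715 on the plus strand, 298.8 kb from the Percc1 start, and had the largest change of the 10. In the stomach, ko libraries held 0.407 (P1), 1.17 (P5), 1.25 (P10), 0.922 (P15) and 0.525 FPKM (P20), and their wt partners 1.79, 2.67, 4.95, 3.13 and 3.34. The highest ko stomach library was thus below the lowest wt library. The large bowel was separated as well, with ko at 0.264 (P1), 0.888 (colon) and 0.229 FPKM (rectum) against 1.40, 1.33 and 1.17. In small intestine the ko libraries spanned 0.416 to 6.13 FPKM (median 1.61) and the wt libraries 0.323 to 8.99 (median 6.99), so the ranges overlapped. The exception was the lower small intestine at P20, where both genotypes were low, at 0.416 in ko and 0.323 in wt. Whole gut at E14.5 held 0.222 FPKM in ko and 0.425 in wt. Igfals was lower in ko in 15 of 16 pairs, with a log2 change of -0.95 (SE 0.14, adjusted p = 0.0015), and the bounds lay apart in 12 pairs, all with ko lower. Separation of the few large bowel libraries was also seen in genes that did not pass. Cramp1l and Ift140 had all ko libraries below wt there, and Gnptg had all above. The share of all genes separated in this way was not determined, for Igfals or for the genes below.

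Fahd1, an enzyme of the mitochondrial matrix that acts on acylpyruvates and oxaloacetate, starts at 24987247 on the minus strand, and was lower in ko in 16 of 16 pairs after rescaling (log2 change -0.46, SE 0.07, adjusted p = 0.00151). Its ko libraries in small intestine spanned 7.59 to 13.3 FPKM (median 11.3) and the wt libraries 13.3 to 19.5 (median 18.1), so the groups overlapped at the ends only. The large bowel values were 6.37, 7.71 and 5.88 FPKM in ko (colon with rectum, colon, rectum) and 9.80, 9.51 and 10.9 in wt, with no overlap. In stomach the groups overlapped: ko held 4.73, 5.15, 6.17, 8.76 and 6.55 FPKM at P1, P5, P10, P15 and P20, and wt 5.84, 6.00, 8.02, 8.71 and 8.92. The stomach change was -0.19 and that of the small intestine -0.60, and the difference between the organs did not pass (0.41, adjusted p = 0.888). Hagh, glyoxalase II, which shares the start region printed above and lies outside the set, had a log2 change of -0.38 over all pairs (adjusted p = 0.0162) and was lower in 15 of 16. Its call was lost with unnamed records added (adjusted p = 0.118), with stages averaged (0.151) and with the 10 pairs whose markers of some other organ differed left out (0.68). With stages averaged or those pairs left out, no gene of the set passed either.

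The lower end of the window is rich in zinc-finger genes, which encode DNA-binding proteins of the C2H2 type, many of them repressors. Of 20 in the set, 15 were tested, 3 fell and 14 had a value below 0, with a median of -0.15 against -0.0009 over all genes tested. This grouping and those below were made with the values known. Zfp40 (23310836 to 23330195) had 1.17 to 1.50 FPKM in the 7 ko small intestine libraries (median 1.28) and 1.96 to 3.01 in wt (median 2.29), with no overlap. The large bowel was separated too: 2.37, 1.87 and 2.05 FPKM in ko against 5.45, 3.20 and 3.04 in wt. In stomach ko held 1.82, 1.63, 1.81, 1.63 and 3.65 FPKM from P1 to P20 and wt 3.44, 3.07, 2.23, 2.89 and 2.55, so that the P20 pair went the other way. Its log2 change was -0.52 (SE 0.09, adjusted p = 0.00766, lower in 15 of 16 pairs).

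Zfp943, the member that passed farthest from Percc1 (3186 kb), ranged from 3.42 to 6.24 FPKM in ko (median 4.45) and from 4.86 to 8.57 in wt (median 6.50) over 16 libraries each. The ranges overlapped except in the large bowel, where the highest ko library was at 5.40 and the lowest wt library at 5.42. Its log2 change was -0.45 (SE 0.09, adjusted p = 0.0128), and 15 of 16 pairs were lower. Zfp213 ranged from 1.42 to 4.47 FPKM in ko (median 2.17) and from 2.26 to 3.89 in wt (median 3.40), overlapping in every organ, with a log2 change of -0.34 (SE 0.06, adjusted p = 0.0127, lower in 15 of 16). The Zfp213 call was lost with unnamed records added (adjusted p = 0.105) and without rescaling (0.0607). Of the zinc-finger genes that did not pass, Zfp945 had -0.43 and Zfp758 -0.30, each lower in 13 of 16 pairs (adjusted p = 0.122 and 0.0813). Reads of such closely related genes can be shared between copies, which the deposited values do not show.

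**Figure D2:**
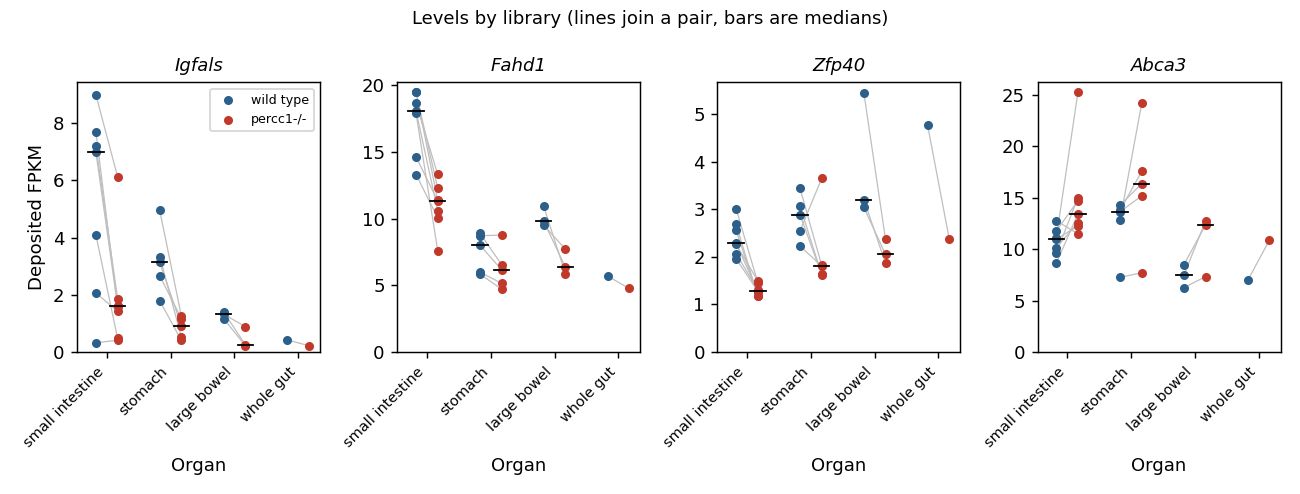
Deposited FPKM (y axis) of Igfals, Fahd1, Zfp40 and Abca3 in each library, by organ (x axis), wild type in blue and ko in red; grey lines join the 2 libraries of a pair and black bars are medians. Igfals in stomach and Zfp40 in small intestine show ko points all below the wt points, and Abca3 shows overlapping ranges with most lines rising.

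Abca3 and Tnfrsf12a were the members that rose. Abca3, a phospholipid transporter known from the lamellar bodies of lung epithelium, ranged from 7.34 to 25.3 FPKM in ko (median 13.1) and from 6.26 to 14.3 in wt (median 10.6), with overlapping groups in each organ. Its highest ko libraries were the lower small intestine at P20 (25.3 against 11.1 in wt) and the lower stomach at P15 (24.2 against 12.8). After rescaling, the log2 ratios of these pairs were 1.15 and 0.54. Over all pairs the log2 change was 0.41 (SE 0.07, adjusted p = 0.00766), and 14 of 16 pairs were higher. When the FPKM of unnamed records overlapping each gene was added to it, the Abca3 change became 0.01 (adjusted p = 0.99) and the call was lost.

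Tnfrsf12a encodes Fn14, the receptor of the cytokine TWEAK, and ranged from 5.37 to 15.1 FPKM in ko (median 8.63) and from 3.28 to 9.34 in wt (median 5.56). The lower small intestine showed the widest gaps, with 15.1 against 3.28 FPKM at P10, 10.5 against 3.28 at P20 and 14.4 against 5.70 at P5, but 8.84 against 9.34 at P1. The log2 change was 0.60 (SE 0.13, adjusted p = 0.0322), with 14 of 16 pairs higher after rescaling. That count includes the lower small intestine at P1 (log2 ratio 0.11). The call was lost in 6 of 16 fits that left out a pair (colon P5, colon with rectum P1, lower small intestine P5 or P10, upper small intestine P15, whole stomach P1; highest adjusted p = 0.0737). Adding unnamed records also removed the call (adjusted p = 0.0913). The Tnfrsf12a record overlaps that of Hcfc1r1.

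Paqr4, a membrane protein of the adiponectin receptor family, ranged from 1.66 to 15.5 FPKM in ko (median 5.19) and from 3.88 to 17.6 in wt (median 8.31). The groups overlapped in every organ, and within pairs ko was lower in 14 of 16. The widest gap was in the lower small intestine at P20, 4.51 against 15.3 FPKM. The log2 change was -0.50 (SE 0.10, adjusted p = 0.0147). The Paqr4 record overlaps that of Pkmyt1, a kinase that holds back Cdk1, which had -0.31 (adjusted p = 0.143, lower in 13 of 16).

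Decr2, a peroxisomal reductase of unsaturated fatty acyl-CoA oxidation, lies 900 kb from the Percc1 start on the other side from the rest. It was lower in ko in 16 of 16 pairs, although the ranges, 8.30 to 15.3 FPKM in ko (median 9.97) and 8.36 to 17.3 in wt (median 12.7), overlapped. Its log2 change of -0.28 (SE 0.05, adjusted p = 0.00493) was the smallest of the 10. With unnamed records added the change was -0.20 and the call was lost (adjusted p = 0.275). In the group of mitochondrial and peroxisomal genes, 7 of 8 were tested, 2 fell (Fahd1 and Decr2) and all 7 had a value below 0, with a median of -0.13. Eci1, an isomerase of mitochondrial fatty acid oxidation, had -0.22 and Ndufb10, a subunit of respiratory complex I, -0.09 (adjusted p = 0.173 and 0.298).

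Snhg9 is a short noncoding host gene of small nucleolar RNAs, and its record overlaps that of Snora78. It ranged from 0.366 to 1.48 FPKM in ko (median 0.645) and from 0.882 to 2.43 in wt (median 1.43), with a log2 change of -0.52 (SE 0.10, adjusted p = 0.0128, lower in 14 of 16 pairs). It averaged 0.751 FPKM in ko and 1.52 in wt, and so entered the set through its wt level, which favours a difference of this sign. The median distance of its upper bound from the value was 115% of the value, and the bounds lay apart in 0 pairs. Snora78 had 0.13 and Rps2, the small-subunit ribosomal protein gene beside it, -0.02 (adjusted p = 0.25 and 0.823). Of 10 genes for RNA processing and ribosomes Snhg9 alone passed, and 6 had a value above 0.

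**Figure D3:**
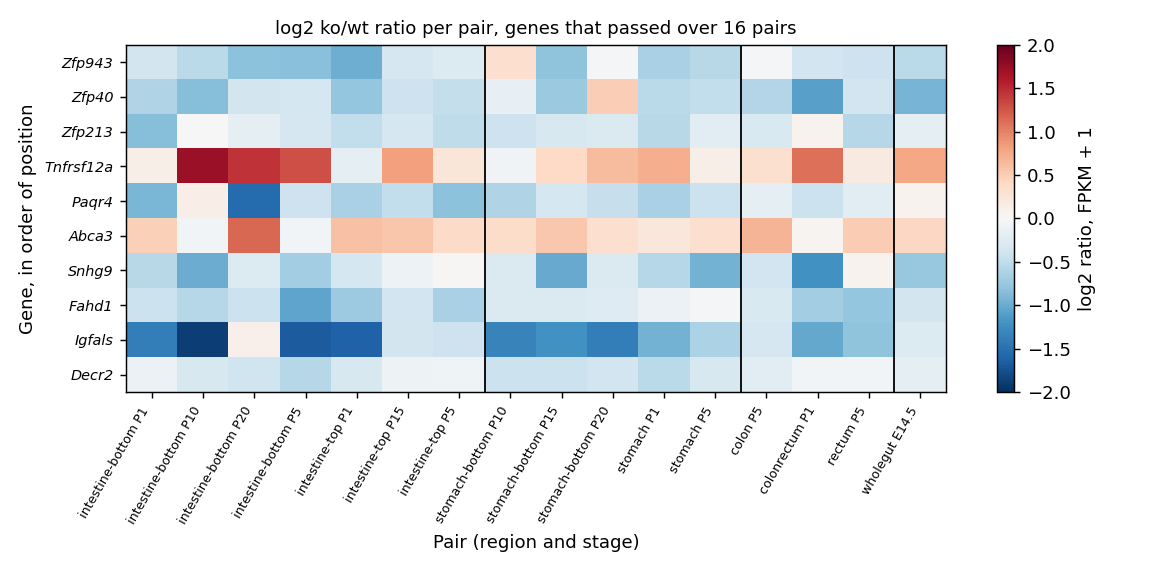
Log2 ratio of ko to wt (colour; red higher in ko, blue lower) for the 10 genes that passed (rows, in order of position) in each of the 16 pairs (columns, grouped by small intestine, stomach, large bowel and whole gut). The Fahd1 and Decr2 rows are blue throughout, the Igfals row is blue in 15 of 16 pairs, and the strongest reds are Tnfrsf12a in the lower small intestine.

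The tested genes nearest to the labelled positions did not pass. On the lower side of these positions they were Mapk8ip3, Hn1l, Cramp1l and Ift140, besides Nme3, which lacked a value in 8 libraries. On the upper side they were Tmem204, Telo2, Clcn7, BC003965 and Unkl. The labelled positions lie below the Percc1 start on mm9, so these are not all the genes nearest to Percc1. Gnptg and Baiap3, with start sites at 25377085 and 25393309, lie nearer to it than Mapk8ip3 or Hn1l, and did not pass either. BC003965 and Unkl start 3.74 and 7.58 kb from the Percc1 start. BC003965 had a log2 change of -0.17 (SE 0.05, adjusted p = 0.12), lower in 15 of 16 pairs after rescaling. Unkl, an unkempt-like zinc-finger protein gene, had 0.26 (SE 0.08, adjusted p = 0.113), higher in 13 of 16. Its stomach groups did not overlap in deposited FPKM: ko held 6.24, 5.28, 5.37, 5.55 and 5.02 FPKM from P1 to P20 and wt 3.37, 3.68, 4.54, 4.54 and 3.82. After rescaling the P15 pair had a log2 ratio of -0.04, and the other 4 stayed above 0.

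Clcn7, a chloride and proton exchanger of lysosomes, lies 18.7 kb from the Percc1 start and differed most in small intestine. There the ko libraries spanned 7.53 to 10.4 FPKM (median 8.47) and the wt libraries 10.1 to 18.9 (median 14.48), and ko was lower in 7 of 7 pairs (log2 change -0.62, adjusted p = 0.0982). In stomach the P10, P15 and P20 pairs went the other way (12.4, 16.1 and 11.9 FPKM in ko against 9.08, 8.86 and 9.19) and the P5 pair did not (6.88 against 14). The difference between stomach and small intestine did not pass (0.75, adjusted p = 0.888).

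Ift140, a subunit of the complex that carries cargo back along cilia, holds the labelled positions on mm9. In stomach its ko libraries were at 5.94, 8.57, 7.35, 8.53 and 6.03 FPKM from P1 to P20, and the wt libraries at 4.94, 5.21, 6.13, 4.26 and 4.43, so ko was higher in 5 of 5 pairs with some overlap. In large bowel ko was lower in 3 of 3 (4.65, 5.49 and 4.47 against 5.79, 5.55 and 5.50 FPKM for colon with rectum, colon and rectum). In small intestine ko spanned 3.52 to 5.36 FPKM (median 4.25) and wt 4.48 to 7.76 (median 5.19). The genotype difference in stomach exceeded that in small intestine by 0.78, which did not pass (adjusted p = 0.471, the smallest among 117 window genes), and the change over all pairs was -0.03 (adjusted p = 0.927). The record of Ift140 overlaps that of Tmem204 on the other strand.

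Fitted organ by organ, limma called 0 window genes of the set in small intestine, stomach or large bowel, where 0.117%, 0.0226% and 0.015% of all tested genes passed. At an unadjusted p under 0.05 stood 27 of 117 in small intestine (10.1% of all genes), 21 of 117 in stomach (4.6%) and 7 of 119 in large bowel (9.96%). The smallest adjusted p values in the set were 0.0546 for Fahd1 in small intestine and 0.219 for Igfals in stomach. Hagh, in the window but left out of the set, did pass in small intestine (log2 change -0.61, adjusted p = 0.0447, lower in 7 of 7 pairs). Igfals averaged too little in large bowel to be tested there. The genotype difference of stomach against small intestine passed for 0 window genes (6 at an unadjusted p under 0.05; 0.0153% of all genes passed). That of P10 to P20 against P1 and P5 also passed for 0 (9 unadjusted; 0% of all genes passed; smallest adjusted p = 0.299, Mapk8ip3).

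By position, the called genes were unevenly spread over the window. Hagh, which passed, is left out of the counts by position. No gene of 7 tested between 21 and 22 Mb passed, 1 of 9 between 22 and 23, 4 of 17 between 23 and 24, 3 of 30 between 24 and 25, 1 of 32 between 25 and 26, and 1 of 21 between 26 and 27. In stretches of 5 Mb, 8 of 63 tested genes passed between 20 and 25 Mb (12.7%) and 3 of 98 between 25 and 30 (3.06%). The highest share on the chromosome was farther off, 6 of 25 between 5 and 10 Mb (24%), where Tmem181a, Dynlt1a and other repeated genes lie. Glo1, glyoxalase I, between 30 and 35 Mb, had a log2 change of 0.50 (adjusted p = 3.61e-07).

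**Figure D4:**
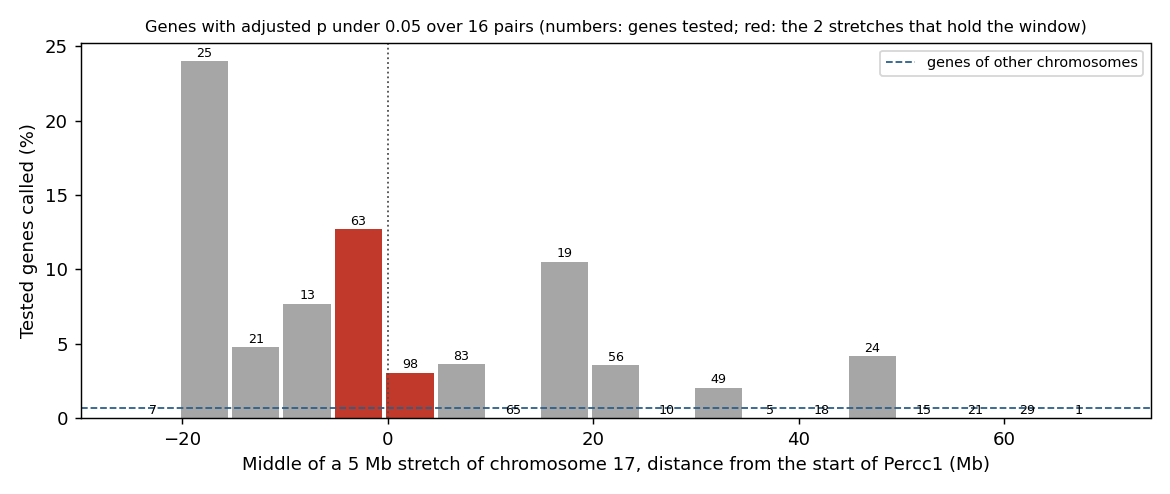
Share of tested genes that passed over 16 pairs (y axis, percent) in each 5 Mb stretch of chromosome 17, by distance of its middle from the Percc1 start (x axis, Mb); numbers are genes tested, red bars are the stretches that hold the window and the dashed line is the share on other chromosomes (0.698%). The red bars stand at 12.7 and 3.06% and the tallest bar, at 24%, lies about 18 Mb away on the lower side. Hagh is not counted.

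Other groups of the window held genes with known work in the gut. The serine proteases stand together in 2 places, and of 6 tested none passed while 5 had a value above 0. Prss32 had 0.49, Prss30 0.41 and Prss41 0.39, each higher in 13 of 16 pairs (adjusted p = 0.083, 0.19 and 0.25). The exception was Tpsg1, the membrane-anchored tryptase of mast cells, with -0.92 (SE 0.26, adjusted p = 0.108). In small intestine Tpsg1 was listed at 0 in 6 of 7 ko libraries and in 1 of 7 wt libraries, and the other ko library, from the lower part at P10, held 3.91 FPKM against 7.61 in wt. The other wt libraries held 6.36, 4.88 and 7.07 FPKM in the lower part (P1, P5 and P20) and 2.45 and 3.39 in the upper part (P1 and P5). In large bowel ko held 4.06, 6.82 and 6.53 FPKM and wt 6.34, 9.03 and 8.11, and in stomach and whole gut it was listed at 0 throughout. A listed 0 may be a failed estimate, and the Tpsg1 record overlaps that of Cacna1h.

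Tpsb2, the secreted mast cell tryptase beside it, had 0.15 (adjusted p = 0.687). Of 8 tested mast cell genes over the genome, 2 fell, Mcpt1 (-1.06, adjusted p = 0.000592) and Mcpt2 (-0.70, adjusted p = 0.00766), the chymases of mucosal mast cells, and the median was -0.19. Of the 8, 5 had a value below 0 and 3 above, with Hdc the highest at 0.44 (adjusted p = 0.368). Dusp1, a phosphatase that ends MAP kinase signals and an immediate early gene, had 0.35 (SE 0.11, adjusted p = 0.126), higher in 13 of 16 pairs. Of 11 tested immediate early genes none passed, and all 11 had a value above 0 (median 0.26). Leaving out the rectum pair at P5, where Dusp1 was at 6.32 FPKM in ko and 12.1 in wt, brought its adjusted p to 0.0246.

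The window also holds Tsc2 and Mlst8, an inhibitor and a subunit of the mTOR growth pathway, and Axin1, a scaffold of the complex that degrades beta-catenin. Tsc2 had -0.16 (SE 0.06, adjusted p = 0.234), Mlst8 -0.05 and Axin1 0.08 (adjusted p = 0.655 and 0.724). Of 10 tested genes of the TSC and mTOR pathway none passed, 5 were above and 5 below 0, and of 8 of the beta-catenin destruction complex none passed and 5 were above 0. None passed of 6 genes of the ciliary complex of Ift140 (all 6 below 0), of 7 lysosomal genes around Clcn7 and Gnptg, of 11 small-subunit ribosomal protein genes or of 3 genes of the Telo2 complex. Among 12 tested signalling genes of the window Tnfrsf12a alone passed, and among 10 transport genes Abca3.

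For 17 members the files lacked a separate value in at least 1 library, and they stood outside the test. Tested over the pairs that had them, none passed. The nearest was 3110052M02Rik, at 1.56 to 9.79 FPKM, higher in ko in 9 of 10 pairs (0.72, SE 0.18, adjusted p = 0.0891). The single pair of whole gut at E14.5 has no replicate. Over 0.5 either way on the log2 scale stood 23.3% of tested window genes there and 15.1% of all genes. Among members of at least 5 FPKM in either of these 2 libraries the largest rises were 1600002H07Rik (11.8 FPKM in ko, 4.98 in wt) and Flywch1 (10.9 and 4.69), and the largest falls Gm16386 (4.53 and 9.70) and Zfp945 (5.10 and 9.71).

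How the members were expressed in the gut, irrespective of genotype, was a measure the choice of the window did not use. The fits for organ and age had no pair block and count the 2 libraries of a pair as separate. Between stomach and small intestine 44 of 117 tested members differed (37.6%, against 48.3% of all genes), 23 higher in stomach (26% of all genes) and 21 lower (22.3%). Without rescaling of the libraries the split was 32 and 17. Rgs11, a regulator of G protein signalling, differed most. In wt stomach it held 13.2 to 26 FPKM over 5 libraries (median 15.6) and in wt small intestine 0.255 to 2.83 over 7 (median 1.40), with no overlap (log2 difference over both genotypes 2.72, SE 0.24, adjusted p = 7.97e-09). Dnase1l2, a DNase of epithelia, followed with 2.02 (adjusted p = 2.05e-05) and Ccdc64b, a relative of the dynein adaptor BICD, with 1.46 (adjusted p = 2.9e-06). Ccdc64b was at 6.39 to 8.67 FPKM in wt stomach and 0 to 2.57 in wt small intestine. Tpsb2 was higher in stomach by 1.11 (adjusted p = 4.38e-06). Prss27 had 1.20, a call lost in 8 of 12 fits that left out a pair.

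The proteases Prss30 and Prss41 were instead lower in stomach than in small intestine. Prss30 held 0.0871 to 0.369 FPKM in wt stomach, 1.48 to 33.1 in wt small intestine and 7.95 to 17.2 in wt large bowel (stomach against small intestine -2.41, SE 0.30, adjusted p = 9.93e-07). Prss41 was lower in stomach by 1.46 on the log2 scale (difference -1.46, adjusted p = 7.54e-07). Noxo1, which organises the NADPH oxidase of the gut epithelium, held 3.02 to 7.66 FPKM in wt stomach, 4.93 to 31.2 in small intestine and 8.73 to 21.4 in large bowel (stomach against small intestine -1.40, adjusted p = 3.15e-06). Fahd1 was also lower in stomach (-1.03, adjusted p = 9.69e-09). The difference of D330041H03Rik (-1.06, adjusted p = 0.014) rests on stomach libraries listed at 0, and was lost without the whole stomach pair at P5 (-0.44, adjusted p = 0.22).

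**Figure D5:**
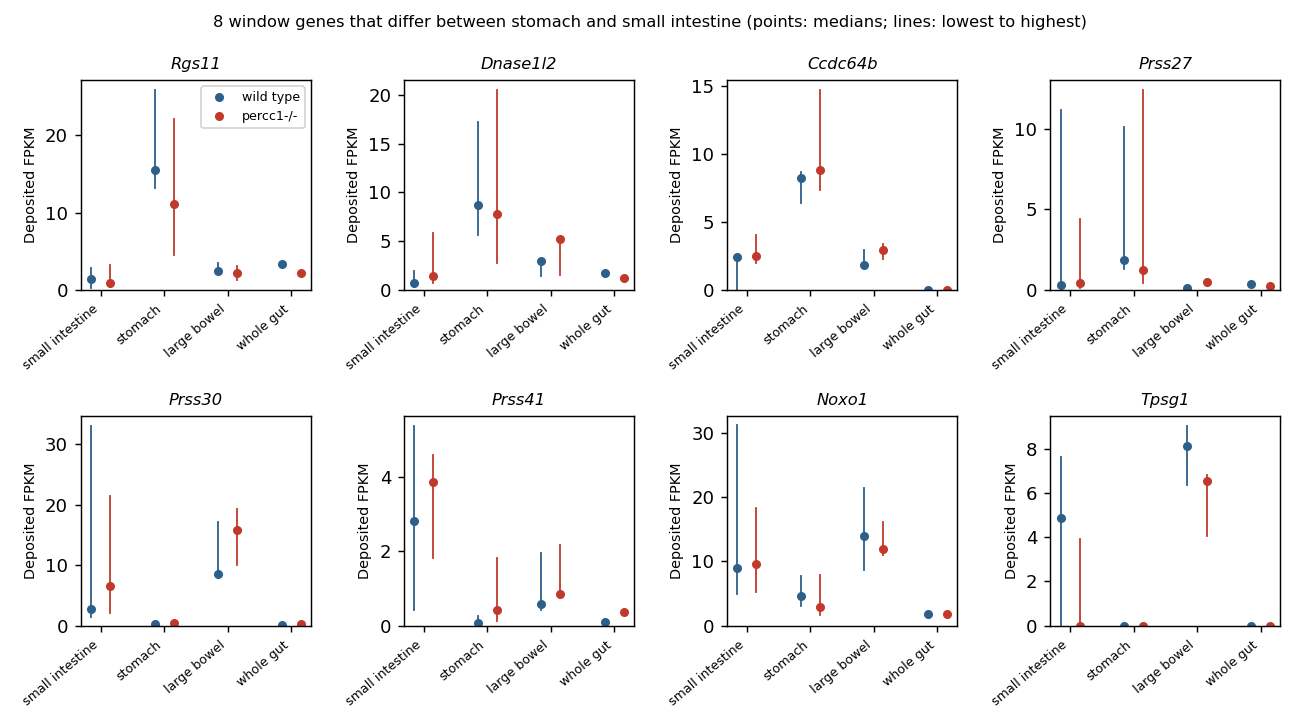
Deposited FPKM (y axis) of 8 window genes by organ (x axis), wild type in blue and ko in red; points are medians and lines run from the lowest to the highest library. Rgs11, Dnase1l2 and Ccdc64b stand highest in stomach, whereas Prss30, Prss41, Noxo1 and Tpsg1 are higher in the intestine.

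Between the stages P10 to P20 and the stages P1 and P5, 12 of 117 members differed (10.3%, against 13.4% of all genes), 6 up (6.48% of all genes) and 6 down (6.91%). Without rescaling the split was 13 and 4. Higher at the older stages were Noxo1 (0.65), Paqr4 (0.60), Baiap3 (0.54), 2610019E17Rik (0.39) and Syngr3 (0.37). Lower were Prss41 (-0.64), 1600002H07Rik (-0.60, adjusted p = 0.00224), Zfp945 (-0.57), Zfp948 (-0.44) and Kremen2 (-0.43). Without the whole stomach pair at P1 the count was 7. Of 12 fits that left out a pair, the call was lost in 8 for Syngr3, in 6 each for Zfp945 and Kremen2, in 4 for Noxo1 and in 1 each for Prss41 and Zfp948, and Zfp945 also lost it without rescaling (adjusted p = 0.0675). Stomach libraries were of the whole organ at P1 and P5 and of the lower part from P10 on, and the upper small intestine had only P15 among the older stages, so age and dissected region cannot be told apart here.

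The pattern of Igfals over the 16 pairs was set beside that of every tested gene. Among the most alike were Adprhl2 (Pearson r = 0.844), Uap1l1 (0.827), Pgcp (0.821) and AI480653 (0.817), on other chromosomes, none of which passed the genotype test. These pairs share libraries and their scaling, and the values are a description.

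The calls over all pairs treat pairs of the same stage as separate. When differences were averaged within the 6 stages, 0 of 116 window genes passed (2 of all genes), and without the 10 pairs whose markers of another organ differed 0 passed, as for all genes. In both cases each of the 10 genes kept its direction, with Igfals at -0.89 and -0.72.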

How the data were processed

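Total RNA was extracted with TRIzol and made into libraries with TruSeq Stranded Total RNA and Ribo-Zero, per the labels' protocols. The authors' tables give 1 FPKM value per assembled gene record with its confidence bounds, also in FPKM, and the submitters' processing notes name TopHat2 2.0.13, SAMtools 0.1.18, Cufflinks 2.2.1 and mm9. The annotation and the strand setting are not given in the sources used here. Counts were not used here, so depth is unknown and no counting interval is given. The records were assembled library by library: unnamed and merged records take reads from named genes, which can move a value.

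Records of a symbol were summed per library, libraries rescaled by median ratio, and log2(FPKM + 1) fitted with limma 3.58.1 in R 4.3.3 (trend, robust). The genotype and difference fits had the pair of region and stage as block. Genes of at least 1 FPKM on average over a fit's libraries with a value in each were tested, with Benjamini-Hochberg adjustment over all of them and a threshold of 0.05. The fits by organ used that organ's libraries. The difference fits used small intestine and stomach, and the level fits had stage or organ and genotype as terms and no pair block. The fit was tested on simulated data. Pairing comes from region and stage, not from animals. With no statement that samples are separate animals, the p-values of the fits with a block measure the spread between these pairs. Those of the level fits measure the spread between libraries and count the 2 libraries of a pair as separate. Alternatives were the pseudocount, the filters, the rescaling, the block, unnamed records added, the window's width, stages averaged, and pairs left out; keeping genes with missing values was added after seeing the data.

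The members, gene lists and groups were chosen with earlier results of these data known. Genes named in the text are those called over all pairs, the 5 nearest the labelled positions on each side, members of the lists, the 5 largest called differences each way between organs and ages, and the 5 largest changes each way in whole gut among members of at least 5 FPKM in either library. Prss32, Zfp758, Eci1, Ndufb10, Snora78, Pkmyt1 and 3110052M02Rik were named after their values were seen. A few results that the rule would name are not reported here.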

Additional observations from a re-analysis of the deposited data

Results flagged for a closer look

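For Ift140 the ko to wt log2 ratio was above 0 in 5 of 5 stomach pairs, from 0.27 to 0.80, and below 0 in 3 of 3 large bowel pairs, from -0.41 to -0.04. The mean ratio was lower in large bowel than in stomach by 0.722 on the log2 scale (large bowel minus stomach, -0.722). What drew attention to it is that every pair of one organ lay on one side of 0 and every pair of the other organ on the other side. The difference between these organs was not tested. In 56 tests of whether a sample stood apart from its group of 4 to 10 samples, 0 were flagged, where chance would pick out about 1 in 20. By number of records the ko lower stomach at P15 did stand apart, with 55408 against 98840 in the next library. Its share of summed FPKM in named genes was 60.2%, against 38.1% in the next.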

How the results depend on the processing

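Over all pairs, leaving out a pair gave 9 to 11 called window genes of 10, and 68 to 184 over all genes of 116. The pairs with markers of another organ left out gave 0 window genes, differences averaged within stages 0, and members of at least 5 FPKM 6; fewer pairs, stages or genes enter these by construction. Without the replicate block small intestine had 3 called instead of 0, and with a pair left out 0 to 1 (1 without the lower part at P20 or the upper part at P15). The block changed no other call of a named gene over all pairs, where it gave 10 and its omission 11. Stomach gave 1 without rescaling and 0 with any pair left out, and large bowel 0 with any pair left out. Stomach against small intestine ranged over 34 to 44 and older against younger over 7 to 15 with a pair left out (7 without whole stomach P1). The differences of the genotype effect gave 0 throughout. Adding unnamed records gave 7 window genes, 6 of them among the 10, and 58 over all genes; the calls of Zfp213 (adjusted p = 0.105), Tnfrsf12a (0.0913), Abca3 (0.99), Decr2 (0.275) and, outside the set, Hagh (0.118) were lost. Tnfrsf12a also lost its call without the filter (0.0547) and Zfp213 without rescaling (0.0607). The cause was not tested.

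Small values changed sign. With unnamed records added, Mapk8ip3 was at 0.103, Ift140 at 0.138 and Axin1 at -0.0761. Tmem204 was at -0.000568 once the pairs with foreign organ markers were left out and -0.0278 without whole gut, where Mapk8ip3 was at 0.00343. Averaged within stages, Rps2 was at 0.00872 and Telo2 at -0.00568. With a pair left out, Mapk8ip3 ranged from -0.0783 to 0.0248, Ift140 from -0.0899 to 0.0061 and Tmem204 from -0.0278 to 0.0431. None of these genes was called in any of these fits.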
